A study of Danio rerio with 9 samples.

Results

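The embryonic heart was compared with adult muscle in zebrafish across 6 RNA-seq samples of the 9 in the series. The tested tissue was heart of wild-type embryos at 4 days of age, with 3 samples, and the tissue it was set against was muscle of wild-type adult fish, also with 3 samples. The 3 remaining samples were adult hearts at 6 months of age, which entered the estimate of the spread and are given only beside values of this comparison. The methods name WIK as the wild-type line and describe the samples as biological ones. They do not say how many embryos or fish went into a sample, nor which muscle was taken. Developmental stage and tissue change together here and cannot be told apart. In tissue samples, fewer cells of a type and less RNA per cell cannot be told apart either.

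Transcripts entered the comparison at a mean above 0.1 FPKM, a fragment number scaled by transcript length and by sequencing depth, in embryonic heart or in adult muscle, which took in 63142 of 103079 assembled transcripts. Of these, 39159 passed in both tissues, 10526 in embryonic heart alone and 13457 in adult muscle alone. A subset of long intergenic noncoding RNAs (lincRNAs) was then taken, namely the 813 cardiac lincRNAs that the authors catalogued from these same samples, of which 735 entered the comparison. Their catalog required expression in embryonic or adult heart, so a lincRNA present in muscle alone is not in it. Any lean of the catalog toward one tissue is therefore not independent evidence of a direction.

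LincRNAs are transcribed between protein-coding genes, carry no long reading frame, and are as a class less abundant and more tissue-restricted than messenger RNAs. Heart and skeletal muscle are both striated and share much of the contractile apparatus, but they arise from different mesoderm and use different regulators. In the embryo, the heart is still forming valves and trabeculae, the muscular ridges inside the ventricle. The transcripts carry assembly identifiers without gene names, so marker genes of heart and of skeletal muscle were not checked.

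Primer pairs for PCR were read from the study's supplementary material for 16 lincRNAs of the catalog. The pairs of the 7 that the results below turn on most are shown, forward and then reverse, each 5′ to 3′, because the pair is the sequence by which each lincRNA can be measured again.
TCONS_00048108 forward: tttggtctcttctcatgtctcc
TCONS_00048108 reverse: tagaggtgtcgtctgtgctg
TCONS_00009015 forward: gaggagaagaaagaggaggtg
TCONS_00009015 reverse: gtacaagaaaagaggtacaggg
TCONS_00040395 forward: aaaccgtcacagcagagaccac
TCONS_00040395 reverse: aaagtccacacagcaggaacac
TCONS_00064425 forward: ctggaggcagaaggaagatg
TCONS_00064425 reverse: tggtgaagccacaacacac
TCONS_00073910 forward: gggactctgaaaaacgtgtc
TCONS_00073910 reverse: ggaaataaaagccgttttgcg
TCONS_00070135 forward: tgtggacaaaactcagttcc
TCONS_00070135 reverse: ctcctctttcacatgaagcg
TCONS_00023920 forward: tcgagctttgtttaggctttc
TCONS_00023920 reverse: ttgagtagcaagcgtgacg

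The samples of a tissue were more alike than samples of different tissues. Across the transcripts tested, correlations of log2(FPKM + 0.1) ran from 0.784 to 0.792 between embryonic hearts and from 0.846 to 0.86 between adult muscles, against 0.548 to 0.571 between the tissues. The median SD between replicates on this scale was 0.598 in embryonic heart and 0.457 in adult muscle. Summed FPKM was 4490000, 14500000 and 19200000 in embryonic hearts 0, 1 and 2 and 3140000 to 4640000 in adult muscle, and the 10 highest transcripts held 84.2% to 95.3% and 64.2% to 74.7% of it. Transcripts above 0.5 FPKM in every sample were on a nearly common scale. Size factors from their median ratio to all samples were 1.01 to 1.04 in embryonic heart and 0.97 to 1 in adult muscle. Across all transcripts tested, the median log2(FPKM + 0.1) was lower in embryonic heart, at -0.99 to -0.96, than in adult muscle, at -0.73 to -0.61. No depth is given with FPKM values. The spacing of low values was searched over a narrow range set in advance. This placed 0.1 FPKM on a transcript of 1 kilobase at 2.2 to 2.78 fragments in embryonic heart and 2 to 2.63 in adult muscle. That range allowed only a few fragments in any case, so the search cannot settle the number. Levels near the threshold may rest on very few fragments.

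Calls needed an adjusted p under 0.05 together with means that differed more than 2-fold. Of the 63142 transcripts tested, 19813 (31.4%) were called, with 7691 (12.2%) higher and 12122 (19.2%) lower in embryonic heart (limma on log2(FPKM + 0.1), two-sided, Benjamini-Hochberg adjustment). Among the 39159 with a mean above 0.1 FPKM in both tissues, the shares called were closer, at 13.9% higher and 16.2% lower. Each embryonic heart sample lay above each adult muscle sample for 18.8% of the transcripts tested and below each of them for 27.7%. With 3 samples against 3, an exact permutation test of a single transcript cannot go below a two-sided p of 0.1, so these orderings are given without a test. The split leaned on the scaling. The median log2 fold change of all transcripts was -0.19, and quantile normalization, which forces 1 distribution on all samples, moved it by 0.3 and brought the calls to 9337 higher and 9970 lower. Rescaling by the median ratio moved the median the other way, by -0.05, with 7372 calls higher and 12489 lower.

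Among the 735 cardiac lincRNAs tested, 108 rose and 169 fell in embryonic heart relative to adult muscle, which is 14.7% and 23% of them. Both shares were a little above those of all transcripts, and the median log2 fold change was -0.28 against -0.19. With quantile normalization 130 were higher and 143 lower, so the excess of falls over rises shrank. Rescaling by the median ratio gave 104 higher and 173 lower, so there the excess grew. Of the 508 lincRNAs with a mean above 0.1 FPKM in both tissues, 69 rose (13.6%) and 100 fell (19.7%), against 13.9% and 16.2% of all such transcripts. The samples of the tissues did not overlap for 152 lincRNAs that were higher and 219 that were lower in embryonic heart. These were 20.7% and 29.8% of those tested, close to the 18.8% and 27.7% of all transcripts. The plot of fold change against level shows called lincRNAs at nearly every level within the cloud of all transcripts.

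**Figure D1:**
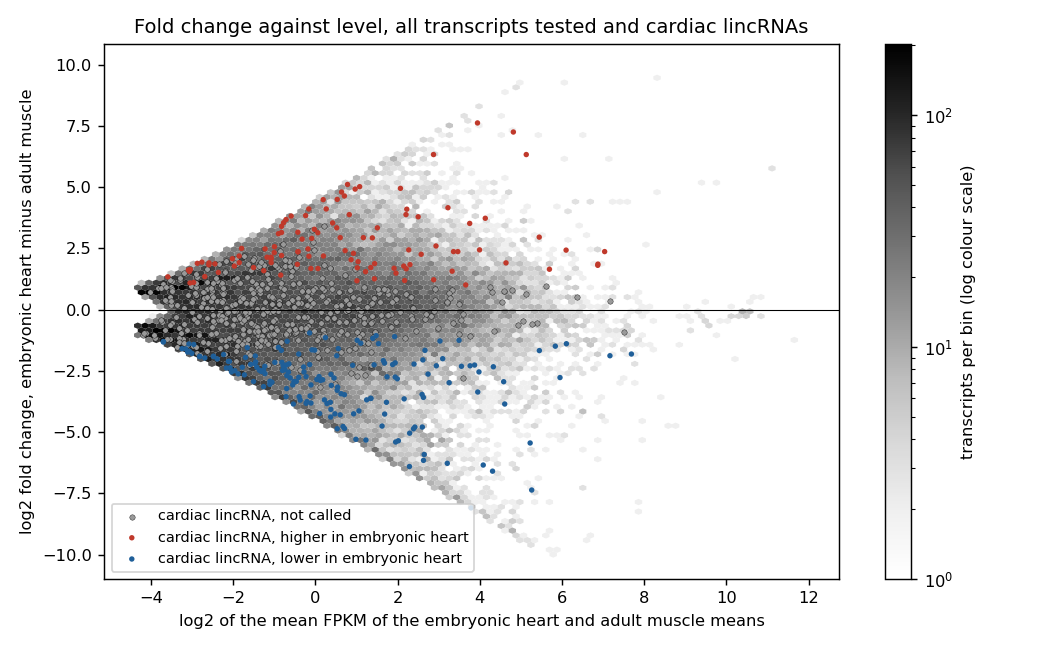
Log2 fold change (embryonic heart minus adult muscle) against the log2 of the mean FPKM of both tissues, with all transcripts tested as grey bins and each cardiac lincRNA as a point coloured by its call. The 108 red and 169 blue lincRNAs lie within the spread of all transcripts, and 151 transcripts with values beyond the axes, none of them a cardiac lincRNA, are not drawn.

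The share called grew with level, in lincRNAs as in all transcripts. Up to a mean of 0.5 FPKM over both tissues, 22% of 314 lincRNAs and 18.1% of all transcripts were called. Between 0.5 and 2 FPKM the shares were 44.7% of 226 lincRNAs and 35.4% of all, and between 2 and 10 FPKM they were 51.5% of 136 and 45.5%. Above 10 FPKM, 37 of 59 lincRNAs were called (62.7%), with 17 higher and 20 lower, beside 56% of all transcripts.

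Called lincRNAs were of modest level, and many were far apart between the tissues, as were called transcripts in general. The higher of the means had a median of 2.81 FPKM among the 108 rises and 2.2 FPKM among the 169 falls, and it exceeded 10 FPKM in 22 and 33 of them. Among all transcripts called, these medians were 3.43 and 2.14 FPKM, and 1859 of 7691 rises and 2605 of 12122 falls exceeded 10 FPKM. Where the lower mean was above 0, the median ratio of means was 6.8 for rises and 9.28 for falls, beside 6.66 and 11.4 for all transcripts called. The lower tissue was listed at 0 in all its samples for 13 rises and 22 falls, and for 227 rises and 1284 falls among all transcripts. A value of 0 in a file of FPKM can also be a failed estimate, so no ratio is given for these.

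In embryonic heart the most abundant lincRNA was TCONS_00048108, an Ensembl transcript of 2 exons at chr20:12386394-12390750 (Zv9). Its FPKM was 306, 192 and 166 in embryonic heart and 43.5, 34.2 and 47.5 in adult muscle. All embryonic hearts were above all muscles, with means of 221 ± 74.8 and 41.8 ± 6.83 FPKM (SD, n = 3 each). The ratio was 5.3 and the log2 fold change 2.37 ± 0.265 (SE, limma adjusted p = 0.000201). Adult heart, at a mean of 362 FPKM, was above both.

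TCONS_00009015, which carries the name lnc_rps25_1 after the gene of ribosomal protein S25, was next. It has 6 exons at chr10:40425286-40428910. The FPKM was 193, 185 and 174 in embryonic heart, against 49, 54.5 and 48.5 in adult muscle. The groups did not overlap, and the log2 fold change was 1.86 ± 0.154 (SE, limma adjusted p = 3.59e-05). Adult heart, at a mean of 27.8 FPKM, lay below both, so this transcript was highest in the embryo of the tissues measured.

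A further 4 of the 10 highest lincRNAs of embryonic heart rose. These 10 were picked by their embryonic heart level, so a lean to rises comes with the choice. Above a mean of 10 FPKM over both tissues, 28.8% of lincRNAs and 22.7% of all transcripts were higher. TCONS_00040395, a transcript of 1 exon on chromosome 19, had 154, 253 and 142 FPKM in embryonic heart and 40, 54.7 and 58.4 FPKM in adult muscle (log2 fold change 1.81 ± 0.268, SE, limma adjusted p = 0.000956). TCONS_00064425 on chromosome 24, not annotated before the catalog, had 157, 130 and 63.1 FPKM in embryonic heart and 18.4, 22.7 and 19.4 FPKM in adult muscle (2.43 ± 0.311, SE, limma adjusted p = 0.000427). In both, the lowest embryonic heart was above the highest muscle. TCONS_00079130 on chromosome 4 averaged 75.4 ± 25.2 FPKM in embryonic heart and 11.8 ± 8.32 FPKM in adult muscle, and its adult heart mean of 361 FPKM was far above both. TCONS_00022936 on chromosome 14 averaged 78.4 ± 6.09 FPKM in embryonic heart and 25.2 ± 5.28 FPKM in adult muscle (SD, n = 3 each).

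The remaining 4 of those 10 did not rise, and 1 of them, TCONS_00023920, fell. TCONS_00028652 on chromosome 16 had 197, 129 and 158 FPKM in embryonic heart and 99.9, 124 and 157 FPKM in adult muscle. The samples overlapped, and the difference was smaller than the test could call (log2 fold change 0.35 ± 0.24, SE, limma adjusted p = 0.304). TCONS_00023933, named LOC100000992oa_1, overlapped as well, at 97.7 ± 28 FPKM in embryonic heart and 67.5 ± 13.7 FPKM in adult muscle (limma adjusted p = 0.118). Under quantile normalization both passed the adjusted p. TCONS_00017202 on chromosome 12 had 171, 140 and 80.3 FPKM in embryonic heart, below the 228, 215 and 267 FPKM of adult muscle, with a log2 fold change of -0.93 ± 0.275 (SE, limma adjusted p = 0.03) and a ratio too small for a call. Its adjusted p rose to 0.0674, 0.056 and 0.0946 without adult muscle 0, 1 and 2, and to 0.681 under quantile normalization.

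TCONS_00023920, on chr14:48566236-48573747, was the most abundant lincRNA of adult muscle. The FPKM was 78.6, 88.6 and 108 in embryonic heart and 332, 279 and 351 in adult muscle, with no overlap and a log2 fold change of -1.81 ± 0.261 (SE, limma adjusted p = 0.000827). Adult heart was at a mean of 416 FPKM, so both adult tissues were above the embryonic heart. A further 2 lincRNAs of its locus, TCONS_00022566 and TCONS_00022567, were lower in embryonic heart too. The 3 overlap in position and may share reads, which were not examined. TCONS_00022567 averaged 17.8 ± 11.2 FPKM in embryonic heart and 106 ± 20.2 FPKM in adult muscle (SD, n = 3 each).

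The 10 highest lincRNAs of adult muscle were picked by their muscle level, so a lean to falls comes with the choice. Of these 10, 7 were lower in embryonic heart and 3 were not called. Above a mean of 10 FPKM over both tissues, 33.9% of lincRNAs and 33.3% of all transcripts were lower. TCONS_00000869, on an unplaced sequence of the assembly, had 61.6, 51.9 and 67.8 FPKM in embryonic heart and 161, 251 and 270 FPKM in adult muscle. TCONS_00000867 overlaps it, and had 2.14, 0.408 and 3.82 FPKM in embryonic heart against 68.9, 92.5 and 56.8 FPKM in adult muscle. Both fell, with log2 fold changes of -1.88 ± 0.228 and -5.44 ± 0.655 (SE, limma adjusted p = 0.000316 and 0.000303). They start at the same base and end at 15191 and 15186. They may therefore share most reads, which were not examined, so how far each fell is not settled. TCONS_00015542 on chromosome 12 was the steadiest of this group, at 38, 37 and 38.9 FPKM in embryonic heart and 98.5, 92.7 and 109 FPKM in adult muscle. TCONS_00002726, also on an unplaced sequence, averaged 30.6 ± 10 FPKM in embryonic heart and 83.8 ± 14.1 FPKM in adult muscle (limma adjusted p = 0.00247).

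Among the lincRNAs with primers, the widest contrasts were in less abundant ones. TCONS_00073910, a transcript of 1 exon at chr3:26674148-26675088, had 37.9, 26.5 and 33.8 FPKM in embryonic heart and 2.04, 3.27 and 1.93 FPKM in adult muscle. It rose by a log2 fold change of 3.73 ± 0.243 (SE, limma adjusted p = 8.69e-06), and adult heart was as low as muscle at 2.01 FPKM. TCONS_00070135, nearby at chr3:27046784-27050353, had 2.64, 2.4 and 3.53 FPKM in embryonic heart and no more than 0.0445 FPKM in any muscle (4.5 ± 0.402, SE, limma adjusted p = 5.43e-05). Its adult heart mean was 0.0672 FPKM, so both lincRNAs were low in each adult tissue.

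TCONS_00022820, TCONS_00007801 and TCONS_00022936 rose too, with log2 fold changes of 1.91, 2.37 and 1.65. TCONS_00007801 had 19.1, 19.5 and 17.1 FPKM in embryonic heart and 3.64, 2.5 and 4.67 FPKM in adult muscle. TCONS_00052125 was higher in all embryonic hearts at 76.1, 51.6 and 67 FPKM, against 27.7, 34.4 and 37.7 FPKM in adult muscle, but its ratio of 1.95 was under the threshold of 2. TCONS_00028686 and TCONS_00000891 were barely present in either tissue of this comparison. TCONS_00028686 had a mean of 27.9 FPKM in adult heart, but 0.129 ± 0.0822 FPKM in embryonic heart and 0.0198 ± 0.0174 FPKM in adult muscle (limma adjusted p = 0.0792, and 0.0422 without embryonic heart 0). TCONS_00000891 had means of 0.0428 and 0.023 FPKM in embryonic heart and adult muscle and was not tested.

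**Figure D2:**
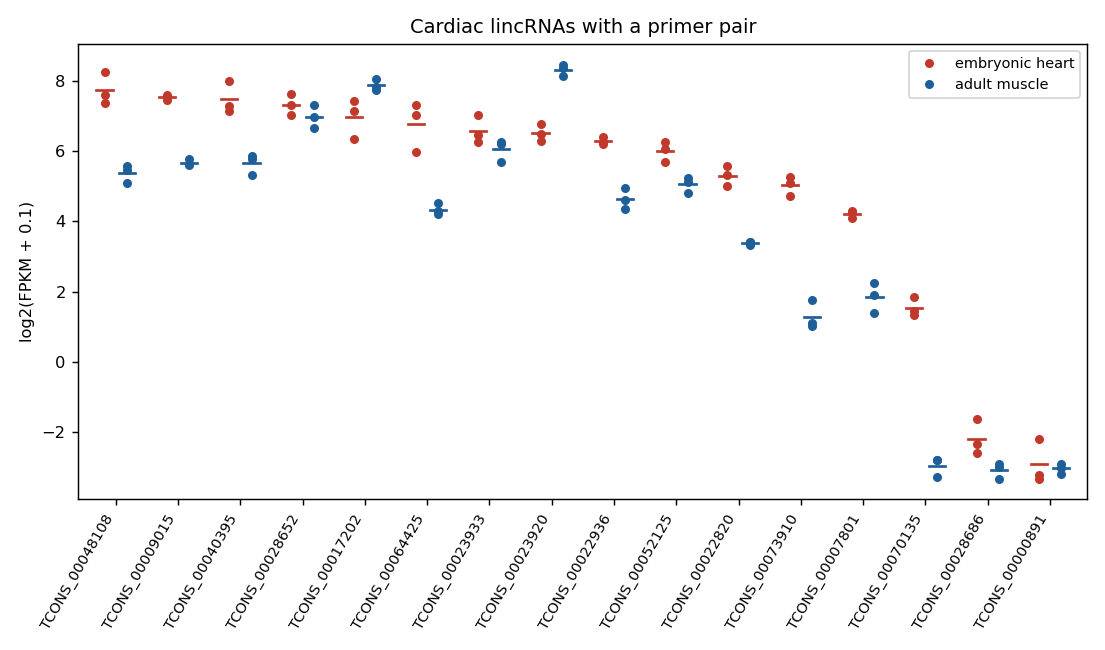
Expression as log2(FPKM + 0.1) of the 16 cardiac lincRNAs with a primer pair, ordered by their embryonic heart mean, with a point for each of the 3 samples per tissue and a bar at the mean of the log2 values. TCONS_00023920 and TCONS_00017202 lie higher in muscle, TCONS_00028652 and TCONS_00023933 overlap, and 9 lincRNAs were called higher in embryonic heart. Of all transcripts tested, 12.2% were called higher. The authors chose many lincRNAs for measurement by their heart levels in these samples, so a lean to rises can come with that choice.

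The 10 largest rises among called lincRNAs without overlap were mostly transcripts near 0 in muscle. TCONS_00045191, an Ensembl transcript at chr2:362942-365060, led with 33.5, 24.6 and 34 FPKM in embryonic heart and 0.263, 0.00175 and 0.00146 FPKM in adult muscle (log2 fold change 7.62 ± 0.511, SE, limma adjusted p = 1.03e-05). Adult heart was also near 0 at a mean of 0.0051 FPKM. TCONS_00000540, on an unplaced sequence, had 36.8, 71.2 and 60.4 FPKM in embryonic heart, against 0.277, 0.371 and 0.154 FPKM in adult muscle (7.25 ± 0.29, SE, limma adjusted p = 6.57e-07). It was higher still in adult heart at 191 FPKM, a pattern of both hearts against muscle.

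TCONS_00053197 on chromosome 21 had 13.1, 16.1 and 14.5 FPKM in embryonic heart. In adult muscle it was at 0.498 FPKM in sample 1 and below 0.001 in the others. In this group 3 lincRNAs, TCONS_00028536, TCONS_00027552 and TCONS_00093620, were listed at 0 in every muscle sample, and TCONS_00047215 was listed at no more than 3.81e-06 FPKM. Their embryonic heart levels were 2.92, 2.83 and 4.58 FPKM for TCONS_00028536, 5.36, 0.858 and 6.43 FPKM for TCONS_00027552, and 1.49, 5.47 and 2.36 FPKM for TCONS_00047215. TCONS_00028536 and TCONS_00047215 were also expressed in adult heart, at means of 3.68 and 3.54 FPKM, whereas TCONS_00027552 was listed at 0 there. TCONS_00047214, which overlaps TCONS_00047215 and may share reads with it, was not called.

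In 2 further rises, 1 muscle sample stood above the other 2. TCONS_00085215, named mstx3_1 and only 114 nucleotides long, had 28, 22.4 and 143 FPKM in embryonic heart and 17.4, 0 and 0 FPKM in adult muscle. Its log2 fold change of 6.33 ± 1.8 (SE, limma adjusted p = 0.025) lost the call without embryonic heart 2 (adjusted p = 0.0779), adult muscle 1 (0.0868) or adult muscle 2 (0.0884) in the same limma test. TCONS_00070245 on chromosome 3 had 7.12, 6.54 and 9.99 FPKM in embryonic heart and 0, 1.55 and 0 FPKM in adult muscle. TCONS_00095710 on chromosome 8, with 5 exons, was low in all muscles and had 2.76, 3.5 and 3.4 FPKM in embryonic heart and 0, 0 and 0.132 FPKM in adult muscle.

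The 10 largest falls were led by TCONS_00017644 at chr13:731052-733766, an unannotated transcript of 3 exons. It was at most 0.00266 FPKM in any embryonic heart and at 27.7, 27.9 and 27.1 FPKM in adult muscle (log2 fold change -8.09 ± 0.387, SE, limma adjusted p = 1.57e-06). Adult heart was between them at a mean of 1.28 FPKM. TCONS_00017643 overlaps TCONS_00017644 in position and was not called. They may share reads, which were not examined, so a fall of the locus as a whole is not shown. TCONS_00016938, at chr12:43226011-43229196, had 0.29, 0.398 and 0.273 FPKM in embryonic heart against 30.6, 35.6 and 34.7 FPKM in adult muscle. Its SE was the smallest among these 10 falls (-6.34 ± 0.21, SE, limma adjusted p = 2.77e-07). TCONS_00098751 on chromosome 8 had 0.935, 0.845 and 0 FPKM in embryonic heart and 65.9, 86.6 and 76.2 FPKM in adult muscle. In TCONS_00017644, TCONS_00016938 and TCONS_00098751 the muscles differed little from each other, and the embryonic hearts were at or near 0.

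TCONS_00064814 and TCONS_00064822 are separate loci on chromosome 24, and with TCONS_00064806 they formed a run of 3 falls at chr24:16588419-16650414. Runs of neighbouring calls were not tested, and some held calls in both directions. TCONS_00064814 had 0, 0.14 and 0.115 FPKM in embryonic heart and 9.85, 13.3 and 13.7 FPKM in adult muscle. TCONS_00064822 had 0, 5.97 and 0 FPKM in embryonic heart and 35.2, 38 and 40 FPKM in adult muscle. All muscle samples were well above the highest embryonic heart for both. TCONS_00051282 on chromosome 20 was listed at 0 in every embryonic heart and at 17.2, 4.27 and 7.88 FPKM in adult muscle. Its neighbour TCONS_00051283 was called higher in embryonic heart. TCONS_00073199, TCONS_00014568 and TCONS_00017587 were also among the 10 largest falls, with log2 fold changes of -5.91, -5.4 and -6.27. So was TCONS_00000867, one of the most abundant lincRNAs of muscle described above. For each of these 10 falls the adult heart mean lay between the means of embryonic heart and adult muscle. Those off the authors' embryonic heart list entered the catalog only through adult heart. For them an adult heart mean above embryonic heart comes largely with that choice.

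**Figure D3:**
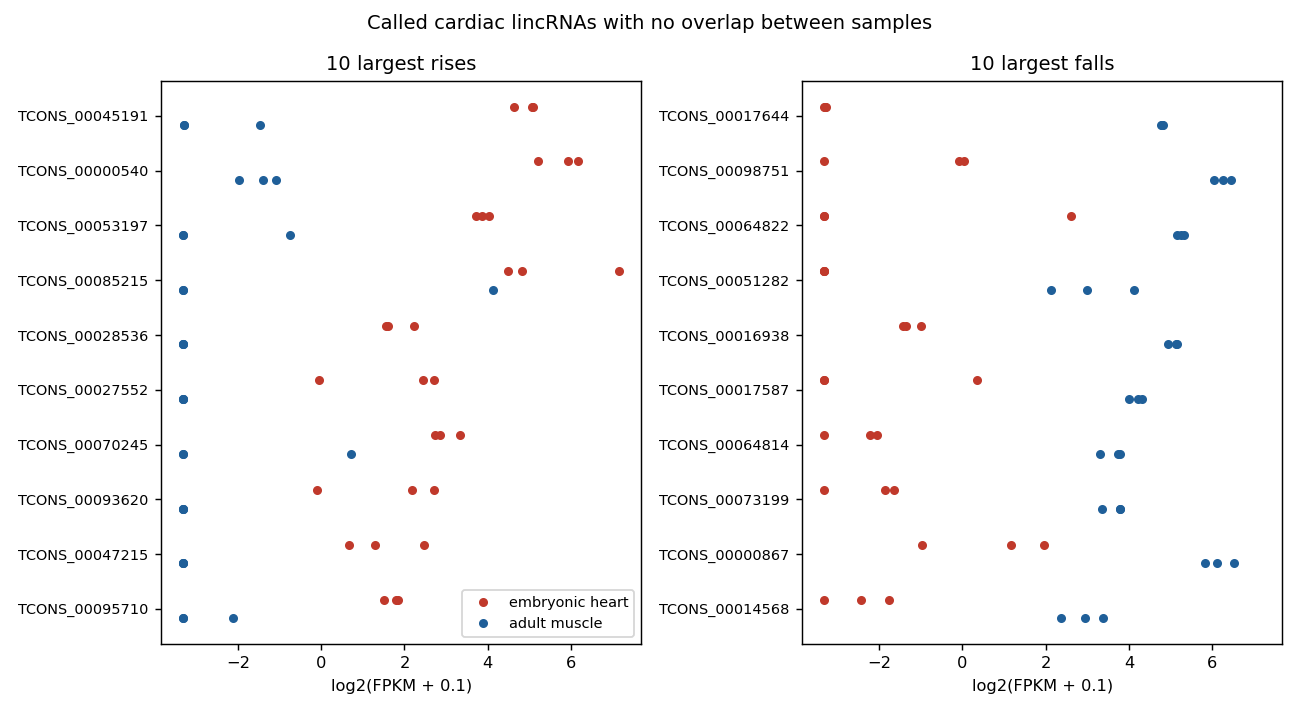
Each sample's log2(FPKM + 0.1) for the 10 largest rises (left) and 10 largest falls (right) among called cardiac lincRNAs with no overlap, embryonic heart drawn above adult muscle in each row. Points at the left edge are values at or near 0, and TCONS_00085215 has 1 muscle sample, at 17.4 FPKM, close to the embryonic hearts.

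Adult heart took no fixed place in the called lincRNAs. Among the 108 higher in embryonic heart than in muscle, the adult heart mean was above both tissues in 27, between them in 53 and below both in 28. Among the 169 that were lower in embryonic heart, it was above both in 26, between in 121 and below both in 22. Of the 121 between, 47 were nearer to embryonic heart and 74 nearer to adult muscle on the log2 scale. These counts have no test, because the groups were formed by the comparison itself. Of the 169 falls, 80 were on the authors' adult heart list alone and so entered the catalog only through adult heart. An adult heart mean above embryonic heart comes largely with that choice.

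The authors' lists of lincRNAs differed in their counts. Of 362 known lincRNAs tested, 58 rose (16%) and 68 fell (18.8%), and of 373 unannotated ones 50 rose (13.4%) and 101 fell (27.1%). With quantile normalization known lincRNAs had more rises (74) than falls (54), and unannotated ones still had fewer (56 and 89). The median log2 fold changes of known and unannotated lincRNAs were 0 and -0.57, or 0.32 and -0.29 under quantile normalization, beside -0.19 and 0.11 for all transcripts. The median of unannotated lincRNAs was below that of all transcripts under both scalings. The catalog held 390 known and 423 unannotated lincRNAs, but the authors' embryonic heart list held more known than unannotated ones. Of 173 tested lincRNAs off that list, 0 rose and 80 fell. The difference between known and unannotated lincRNAs cannot be told apart from how the catalog was chosen. The 70 lincRNAs of 1 exon, all known, had 14 rises (20%) and 9 falls (12.9%), the only exon class with more rises than falls. Of 429 with 2 exons, 62 rose (14.5%) and 104 fell (24.2%). Of 236 with 3 or more exons, 32 rose (13.6%) and 56 fell (23.7%), so both larger classes were close to the lincRNAs as a whole. Of all cardiac lincRNAs tested 14.7% rose and 23% fell, and of all transcripts 12.2% and 19.2%.

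What the calls shared beyond level was limited. Rises had a median length of 750 nucleotides and falls 1013, beside 869 for lincRNAs not called. Known lincRNAs made up 53.7% of rises, 40.2% of falls and 51.5% of the rest. The mean number of exons was 2.56, 2.54 and 2.6 in the same order. Falls were found on all 25 chromosomes and rises on 24.

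**Figure D4:**
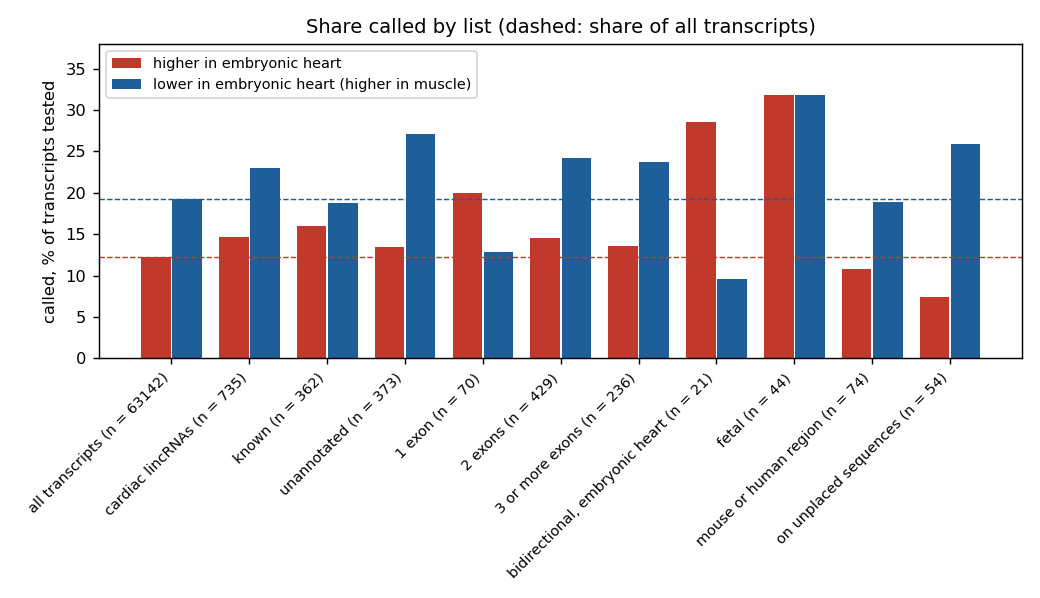
Percent of tested transcripts called higher (red) or lower (blue) in embryonic heart relative to adult muscle, for all transcripts and for lists of cardiac lincRNAs with the number tested under each bar. Dashed lines mark the shares of all transcripts, 12.2% and 19.2%, and the bars of unannotated lincRNAs (13.4% and 27.1%) and of lincRNAs of 1 exon (20% and 12.9%) show opposite leans.

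Lists that the authors chose on these samples carry their direction from that choice. Of 562 lincRNAs on their embryonic heart list, 108 rose (19.2%) and 89 fell (15.8%), and of 173 on the adult heart list alone none rose and 80 fell (46.2%), beside 12.2% and 19.2% of all transcripts. Of 137 lincRNAs they listed as cardiac-specific, 50 rose (36.5%) and none fell. By the authors' rule, expression in most muscle samples kept a lincRNA off this list. A high value in 1 muscle sample did not, as in TCONS_00085215, and 24 of the 137 had a mean above 0.1 FPKM in both tissues. A fetal list held 51 lincRNAs that differed between the embryonic and the adult heart, of which 44 were tested here. Of the 16 with a higher mean in embryonic than in adult heart, 12 were also higher than in muscle (75%) and 1 was lower (6.25%). Of the 28 with a higher mean in adult heart, 2 were higher (7.14%) and 13 lower (46.4%) in the embryonic heart than in muscle, again beside 12.2% and 19.2% of all transcripts. Both comparisons use the same embryonic heart samples, so these counts are not separate lines of evidence.

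Bidirectional lincRNAs start close to a protein-coding gene and run away from it on the other strand. Of the 21 that the authors listed for embryonic heart, 6 rose (28.6%) and 2 fell (9.52%), beside 12.2% and 19.2% of all transcripts, with a median log2 fold change of 0.81. The 21 were drawn from the authors' embryonic heart list, which was chosen for expression in these samples. That list as a whole already leaned to rises, with 19.2% higher, 15.8% lower and a median of 0.27. The counts of the 21 were the same with rescaled and quantile normalized values. Of the 23 tested from the adult heart's bidirectional list, 6 rose and 5 fell, with a median of 0.08, and of the 26 on either list 6 rose and 5 fell, with a median of 0.3. TCONS_00050295, opposite usp46, a ubiquitin protease, changed most. It had 26.1, 25.7 and 22.8 FPKM in embryonic heart and 2.51, 1.72 and 2.07 FPKM in adult muscle (log2 fold change 3.52 ± 0.246, SE, limma adjusted p = 1.33e-05). The lowest embryonic heart was far above the highest muscle.

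Both lincRNAs opposite tbx2b rose. This gene encodes a T-box repressor that keeps chamber genes off in the canal between atrium and ventricle. TCONS_00026988 had 18.6, 7.96 and 13.3 FPKM in embryonic heart and 1.96, 2.04 and 1.97 FPKM in adult muscle (log2 fold change 2.6 ± 0.326, SE, limma adjusted p = 0.000379). TCONS_00026989, which overlaps it at chr15:26706246-26713025 and may share reads with it, had 4.02, 1.86 and 4.83 FPKM in embryonic heart and 0.879, 1.4 and 0.985 FPKM in adult muscle (1.55 ± 0.392, SE, limma adjusted p = 0.015). Neither overlapped between tissues. TCONS_00085647, named tbx2aoa2_1 after the paralog tbx2a, had 0.307, 1.03 and 1.14 FPKM in embryonic heart and 0.0372, 0.282 and 0.0496 FPKM in adult muscle (2.06 ± 0.657, SE, limma adjusted p = 0.0398). Its call did not hold in the same test without embryonic heart 1 or 2 (adjusted p = 0.105 and 0.106) or without adult muscle 0 or 2 (0.117 and 0.115).

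A further 3 bidirectional lincRNAs rose. TCONS_00007803, opposite the sorting nexin gene snx30, had 5.63, 3.72 and 4.74 FPKM in embryonic heart and 0.607, 0.441 and 0.533 FPKM in adult muscle. It lies in the same 4917864 to 4966672 stretch of chromosome 10 as TCONS_00007801, which also rose. TCONS_00046542, opposite sdr39u1, a short-chain dehydrogenase gene, had 4.71, 3.76 and 3.4 FPKM in embryonic heart and 1.15, 1 and 1.23 FPKM in adult muscle. TCONS_00074650, opposite tmbim4, whose product is a Golgi membrane protein, had 0.493, 0.469 and 1.41 FPKM in embryonic heart and 0, 0.194 and 0 FPKM in adult muscle, with a limma adjusted p of 0.0147, and of 0.0519 without adult muscle 2.

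The 2 falls were TCONS_00066754 and TCONS_00098084. The first, opposite si:ch211-68a17.4, had 0.719, 1.27 and 0.827 FPKM in embryonic heart and 6.05, 7.22 and 6.96 FPKM in adult muscle (log2 fold change -2.75 ± 0.251, SE, limma adjusted p = 6.13e-05). TCONS_00098084, opposite the chromatin remodeler gene smarcad1, averaged 0.144 ± 0.0673 FPKM in embryonic heart and 1.08 ± 0.417 FPKM in adult muscle (limma adjusted p = 0.00921). In neither did the tissues overlap.

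A list of 10 lincRNAs opposite, or named for, genes of heart and striated muscle was read as a group. Of the 8 tested, 3 rose and 1 fell, 37.5% and 12.5% beside 12.2% and 19.2% of all transcripts, and 2 of the 3 rises were the overlapping lincRNAs opposite tbx2b, which may share reads. The fall was TCONS_00091387, named tnnt3bpa_1 after fast skeletal troponin T, a subunit of the thin filament, with 0.136, 0.316 and 0.144 FPKM in embryonic heart and 1.08, 2.46 and 2.24 FPKM in adult muscle (log2 fold change -2.73 ± 0.478, SE, limma adjusted p = 0.00238). The 3 rises were those of tbx2b and tbx2a above.

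The other members were not called. TCONS_00016569, opposite cacna1g, which encodes a T-type calcium channel, had 0, 1 and 0.819 FPKM in embryonic heart and 0.0523, 0 and 0.137 FPKM in adult muscle. Embryonic heart 0 was the lowest of its group, and the limma adjusted p was 0.198 with all samples and 0.00593 without that one. TCONS_00050140, opposite the calmodulin gene calm2a, averaged 0.828 ± 0.591 FPKM in embryonic heart and 0.35 ± 0.0502 FPKM in adult muscle. TCONS_00017790, opposite the homeobox gene meis1, was nearly level at 0.235 ± 0.179 and 0.211 ± 0.143 FPKM. TCONS_00079532, named lnc_msgn1_1 after a regulator of presomitic mesoderm, was higher in all embryonic hearts at 5.06, 4.56 and 2.8 FPKM, against 2.42, 2.08 and 2.04 FPKM in adult muscle, with a ratio of 1.9. TCONS_00035300 at id2a and TCONS_00062814, named tnnc1aia2_1 after a troponin C gene, were below the threshold in both tissues.

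The list of cell cycle names held 3 lincRNAs, of which 1 was called, beside 31.4% of all transcripts. So short a list shows no lean. TCONS_00021303, named lnc2_aurkb_1 after the mitotic kinase Aurora B, had 0.969, 1.69 and 0.824 FPKM in embryonic heart and 2.94, 1.9 and 3.83 FPKM in adult muscle, and was the 1 called (log2 fold change -1.25 ± 0.407, SE, limma adjusted p = 0.043). The call was lost in limma without embryonic heart 0 or 2 (adjusted p = 0.101 and 0.111) or adult muscle 0 or 2 (0.104 and 0.138), and with quantile normalization. TCONS_00021304, named lnc3_aurkb_1 and overlapping it, leaned the other way at 5.59 ± 1.79 FPKM in embryonic heart and 3.6 ± 1.07 FPKM in adult muscle, and overlapped. TCONS_00085519, named tp53pa7_1 after the p53 gene, overlapped as well.

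**Figure D5:**
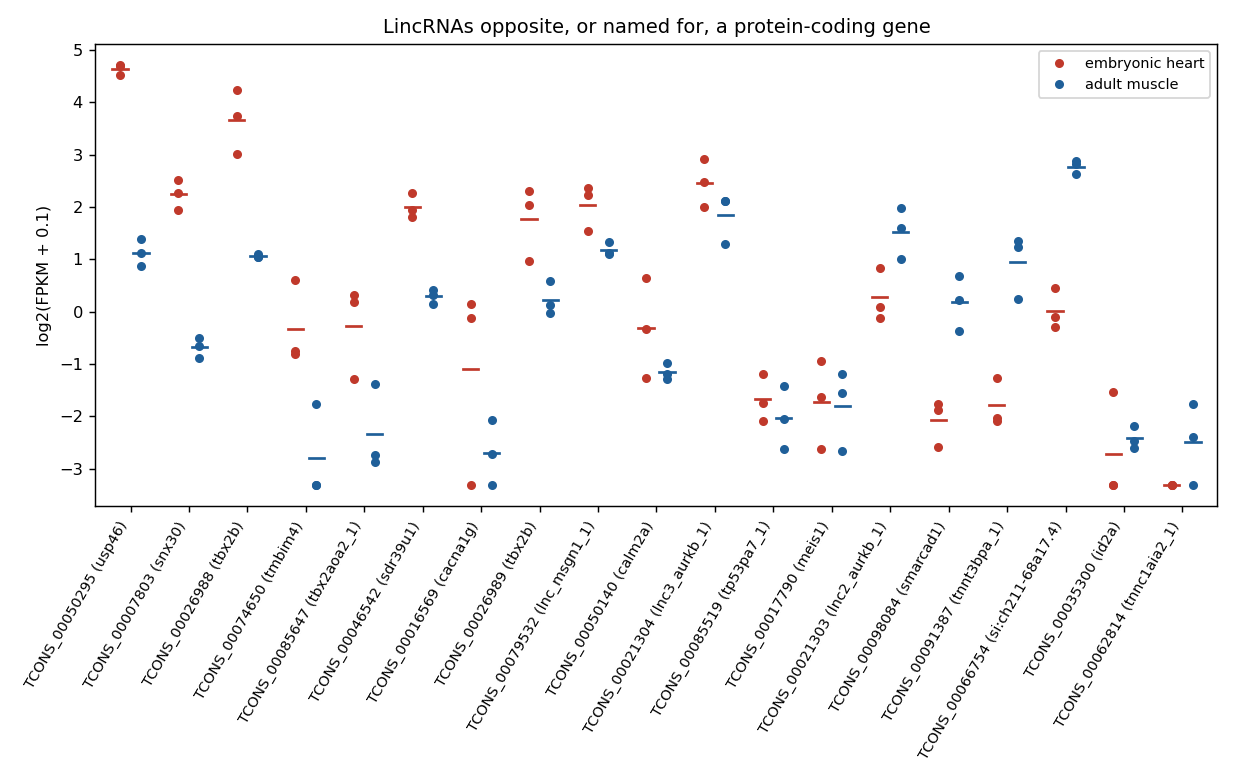
Expression as log2(FPKM + 0.1) of 19 cardiac lincRNAs opposite, or named for, a protein-coding gene given in brackets, ordered by log2 fold change with the 2 untested ones at the right, with a point per sample and a bar at the mean of the log2 values. The lincRNAs of usp46, snx30 and tbx2b at the left are higher in embryonic heart, and those of smarcad1, tnnt3b and si:ch211-68a17.4 are higher in muscle.

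Opposite calls within a locus were found once. Among 65 loci with 2 or more overlapping lincRNAs, 148 lincRNAs in all, 18 loci had at least 2 calls in the same direction and 1 had opposite calls. At that locus, chr13:6324078-6326600, TCONS_00019501 and TCONS_00019502 are 2380 and 2403 nucleotides long and start at the same base. TCONS_00019501 had 0.202, 0.00237 and 0.00018 FPKM in embryonic heart and 1.26, 3.1 and 3.24 FPKM in adult muscle. TCONS_00019502 had 2, 3.18 and 1.67 FPKM in embryonic heart and 0.00236, 0.000461 and 0.00314 FPKM in adult muscle. By these estimates each tissue had nearly all of the locus on 1 of the forms, while adult heart had means of 1.81 and 0.505 FPKM. The log2 fold changes were -4.07 ± 0.545 and 4.49 ± 0.79 (SE, limma adjusted p = 0.000557 and 0.00244). Both forms have 2 exons, and they end at 6326577 and 6326600, so they differ little in position and length and may share most reads. How reads were divided between them rests on the authors' assembly and FPKM estimation, which were not examined. A switch between the forms is therefore not shown.

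At the threshold of 0.1 FPKM, the lincRNAs just inside were TCONS_00026932, with means of 0.0471 FPKM in embryonic heart and 0.102 FPKM in adult muscle, and TCONS_00024784, with 0.106 and 0.0538 FPKM. Just outside were TCONS_00050021, with 0.0892 and 0.0963 FPKM, and TCONS_00064017, listed at 0 in embryonic heart and at 0.095 FPKM in adult muscle. Adult heart was higher in all 4, up to 0.998 FPKM. In all, 78 catalog lincRNAs lay outside.

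Outside the catalog, the called transcripts of highest mean FPKM had far larger values. FPKM divides by transcript length, which was not examined for these 4, so such values need not mean as many more fragments. TCONS_00078946 had 776000, 625000 and 854000 FPKM in embryonic heart and 1960, 3400 and 1100 FPKM in adult muscle, and TCONS_00078947, with the next number, had 88600, 59900 and 106000 FPKM against 678, 1200 and 712 FPKM. TCONS_00003123 was listed at 0 in every embryonic heart and at 233000, 301000 and 563000 FPKM in adult muscle, and TCONS_00051767 was listed at 0 in embryonic heart and at 417000, 38000 and 350000 FPKM in adult muscle. The last 2 were also listed at 0 in adult heart, and no name is paired with any of the 4.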

How the data were processed

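The deposited values are FPKM per assembled transcript and sample, which the authors made with TopHat2 2.0.12 (reads aligned to Zv9), Cufflinks 2.2.1 and Cuffnorm from paired 50-base reads. The scaling option of Cuffnorm is not given in the sources used here. Coordinates, lists and primers were read from the study's supplementary sheets, without their values. LincRNAs whose positions overlap on 1 chromosome were taken as a locus, without regard to strand or reads.

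Values were tested as log2(FPKM + 0.1) with limma 3.58.1 (intensity trend, two-sided) in R 4.3.3, with all 9 samples in one fit and Benjamini-Hochberg adjustment over the 63142 transcripts tested. The pseudocount understates changes of low transcripts. A mean of 0 in the lower tissue passed the ratio of 2. The p-values measure the spread pooled over these 9 samples, the adult hearts included. With only the 6 compared samples in the fit, 17082 transcripts and 237 cardiac lincRNAs were called. The fit was tested on simulated data. Tables and plots were made with pandas 2.3.3, numpy 2.4.6 and matplotlib 3.10.9 in Python 3.11.15.

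The named lincRNAs were the 10 largest rises and falls without overlap, those with primers, called bidirectional ones of embryonic heart, the 10 highest per tissue, a locus with opposite calls, list members with gene names and those at the threshold. For transcripts with no name, the 2 highest called per direction were named. The members and lists were chosen with earlier results of these data known. Alternatives were other pseudocounts, filters, scalings, fits and thresholds, a replicate block, and leaving out each sample. The authors' test needs reads and was not repeated.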

Additional observations from a re-analysis of the deposited data

How the results depend on the processing

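At an adjusted p below 0.01 the cardiac lincRNAs called came to 179, with 64 higher in embryonic heart, and to 43 higher among those with a mean above 0.1 FPKM in both tissues. All other alternatives kept the counts of transcripts and lincRNAs called within 1.5 times. Leaving out each sample in turn gave 17628 to 19829 transcripts and 228 to 269 lincRNAs called, and no lincRNA called both with all samples and in one of these fits changed direction. Among 61 named lincRNAs tested, 6 lost the adjusted p in at least 1 of 17 alternative fits, 4 gained it and 0 reversed.

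With a replicate block, 256 lincRNAs were called, 100 higher and 156 lower, and 18646 transcripts. Same-numbered samples of the tissues had correlated deviations of only 0.0132 to 0.0135, so the numbers were not taken to pair them, although each sample correlated best with its own number. Quantile normalization raised the share of lincRNA calls that were higher to 47.6%, against 39%, and rescaling by the median ratio lowered it to 37.5%. Depth limits transcripts near 0.1 FPKM, which may rest on very few fragments, a number that the search over low values could not settle.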

Other observations

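The authors listed 83 cardiac lincRNAs with an orthologous region in mouse or human, of which 74 were tested. In embryonic heart 8 of them were higher and 14 lower than in adult muscle (10.8% and 18.9%), close to the 12.2% and 19.2% of all transcripts. With quantile normalization the counts were 13 and 10. The median log2 fold change was 0.04, -0.01 after rescaling and 0.32 after quantile normalization.

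Counts by chromosome are given without a test, and chromosomes 25 and 5 were chosen after their values were seen. Of all cardiac lincRNAs tested, 14.7% were higher and 23% lower, and of all transcripts 12.2% and 19.2%. Chromosome 25 had 2 lincRNAs higher (6.67%) and 14 lower (46.7%) in embryonic heart of 30 tested, with a median log2 fold change of -1.63, and 4 and 11 with quantile normalization. Several of the 14 lie in neighbouring pairs, and TCONS_00066144 and TCONS_00066146 overlap and may share reads, so the 14 are not all separate. Chromosome 5 had 11 higher (27.5%) and 5 lower (12.5%) of 40 tested, with a median of 0.73, and 14 and 3 with quantile normalization. Chromosome 4, which carries the most lincRNAs of the catalog, had 6 higher (8.33%) and 9 lower (12.5%) of 72. Unplaced sequences held 54 tested lincRNAs, with 4 higher (7.41%) and 14 lower (25.9%).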
